A study of Mus musculus with 24 samples.

Results

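The promoters of cytosolic ribosomal protein genes were followed as a housekeeping set through 12 H3K4me3 libraries from the mouse cerebral cortex. A counted region was a member where it overlapped an annotated transcription start site (TSS) of a protein-coding gene of the set. The set held symbols of Rpl or Rps plus a number, with or without 1 trailing letter, and Rpsa, Rplp0, Rplp1 and Rplp2. Of the 80 genes with such a symbol in GENCODE M1, 73 had a region on a start site, and these gave 79 of the 17993 regions counted (mm9). They were 41 genes of the large subunit, 29 of the small subunit and the 3 stalk genes. Rpl13a, Rpl15, Rpl18, Rpl24, Rpl39 and Rps18 had 2 regions each, and 14 regions also covered the start of another protein-coding gene, so that their reads cannot be assigned to 1 of the genes. Rpl31, Rps3a, Rps4x and Rps7 had no region on a start site but 1 within 200 bp, and Rpl10l, Rpl39l and Rpl3l had none within that distance. Of 162 annotated pseudogenes named as a member symbol plus -ps, 0 had a region on their start.

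The libraries came from 2 mouse lines on a C57BL/6 background. In the Rosa line (Rosa CAG-H2B-FLAG), recombined by Vasa-Cre and kept heterozygous, FLAG-tagged histone H2B is made ubiquitously from the CAG promoter at the Rosa26 locus. In the Camk2a line (Rosa26 CAG-floxed-pA-H2B-FLAG/ CaMKCreERT2), double-heterozygous males received 1 mg of tamoxifen a day in 5 daily injections from 8 weeks of age and were sampled 1 month later, so that the tag is restricted to cells in which the Camk2a promoter drove Cre. The age of the Rosa mice was not given in the sources used here. In both lines the tagged H2B was expressed on top of endogenous H2B, and a portion of it carries an N-terminal extension. Each line was measured by single ChIP-Seq, with an antibody against H3K4me3 alone on chromatin of the whole tissue, and by tChIP-Seq, in which chromatin was first purified with an anti-FLAG antibody and then precipitated with the antibody against H3K4me3. Each of the 4 groups held 3 libraries. Chromatin lysates were made from frozen cortex of 2 animals, and since the sources used here do not say which animals stand behind each library, p-values measure the spread between these libraries only.

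Trimethylation of lysine 4 on histone H3 (H3K4me3) marks nucleosomes around the start sites of active genes, in particular at promoters rich in CpG. Ribosomal proteins are needed by every cell type in balanced amounts, and their short genes are among the most strongly transcribed of the genome. Most of them start within a run of pyrimidines, the terminal oligopyrimidine motif, through which the mTOR pathway controls the translation of their mRNAs, and many carry small nucleolar RNAs in their introns. As genes used by neurons, glia and vessels alike, they offer a reference against which promoters that differ between cell types can be read.

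The start sites of members on which the comparisons turn are shown here as 30 bases, 20 before and 10 from the RefSeq start, with the longest run of pyrimidines in capitals. For Rpl34, Rpl19 and Rpl10a, which have 2 RefSeq starts each, the start with the longer run is shown. RefSeq promoters (GRCm38.p6) were available for 53 of the 73 genes and were placed on mm9 by exact match, and coordinates are those of mm9 with the strand of the gene. Rpl12, Rpl34 and the Rpl15 region shared with Nkiras1 were members with large differences in 1 of the comparisons. Rpl27a and Rpl19 differed between the lines in single ChIP-Seq, and Rps10 and Rpl10a were higher in tChIP-Seq of the Camk2a line. Rpl28, Rpl10 and the Rps18 region shared with Vps52 were lower in tChIP-Seq of both lines. The printed Rps18 start lies in the other region of the gene, at chr17:34091280-34092644, which was not called lower in either line. The printed Rpl15 start lies in the region at chr14:19101752-19103519, and not in the neighbouring one shared with Nkiras1.
Rpl12, chr2:32817212-32817241 (+): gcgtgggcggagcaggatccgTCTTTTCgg
Rpl15, chr14:19103491-19103520 (-): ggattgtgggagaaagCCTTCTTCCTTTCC
Rpl34, chr3:130433246-130433275 (-): ccgCCCCTTCCTTTTCCTCTTCCggggacg
Rpl27a, chr7:116662689-116662718 (+): cgcgagacttcgtgagCTCCTCCCTTTTCC
Rpl19, chr11:97888218-97888247 (+): gggcttgggCTCTCCCCTTCgcagataatg
Rps10, chr17:27772180-27772209 (-): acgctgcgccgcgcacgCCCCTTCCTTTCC
Rpl10a, chr17:28465396-28465425 (+): gcgtggtggcgCCCCCCCagcggccgcaaa
Rpl28, chr7:4744547-4744576 (+): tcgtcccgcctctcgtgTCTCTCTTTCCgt
Rps18, chr17:34092601-34092630 (-): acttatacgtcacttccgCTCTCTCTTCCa
Rpl10, chrX:71516135-71516164 (+): CTatggttgttacagtggaagataggccgc
The runs ranged from 2 pyrimidines in the Rpl10 window to 20 in the Rpl34 window. Among all 53 genes, 60.4% had a run of at least 7 pyrimidines within 20 bases of the start, against 24.2% of the 26972 other genes with a promoter in the same table, and 34.0% against 7.20% had a run of at least 10.

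The 250 bases before the start are shown for 3 genes whose upstream sequence reaches a neighbouring gene's promoter or a second counted region. Capitals mark, on either strand, the GC box (GGGCGG), the core of ETS factor sites (CGGAAG), the core of YY1 sites (AANATGGC) and the TATA box (TATAAA).
Rpl12, chr2:32816982-32817231 (+): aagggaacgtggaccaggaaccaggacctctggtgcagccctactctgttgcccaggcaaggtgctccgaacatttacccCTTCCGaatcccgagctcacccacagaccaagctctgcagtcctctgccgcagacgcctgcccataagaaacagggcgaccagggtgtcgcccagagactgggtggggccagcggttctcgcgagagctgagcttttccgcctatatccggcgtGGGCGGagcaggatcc
Rpl15, chr14:19103501-19103750 (-): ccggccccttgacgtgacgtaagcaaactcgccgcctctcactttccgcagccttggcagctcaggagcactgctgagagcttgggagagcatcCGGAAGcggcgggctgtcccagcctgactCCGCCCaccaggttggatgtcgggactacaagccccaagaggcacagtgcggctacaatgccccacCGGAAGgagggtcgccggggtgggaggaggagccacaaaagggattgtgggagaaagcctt
Rps18, chr17:34092611-34092860 (-): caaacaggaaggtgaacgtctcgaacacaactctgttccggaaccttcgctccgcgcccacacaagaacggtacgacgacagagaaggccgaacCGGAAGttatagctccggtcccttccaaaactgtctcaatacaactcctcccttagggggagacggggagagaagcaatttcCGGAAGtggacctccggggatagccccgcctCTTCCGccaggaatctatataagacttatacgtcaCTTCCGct
The Rps18 stretch held 4 matches to the ETS core, while the Rpl15 stretch held 2 and the Rpl12 stretch 1. In the 300 bases around the start, the ETS core was found in 69.8% of the 53 member promoters and in 17.1% of the other promoters, the GC box in 58.5% and 35.9%, the YY1 core in 18.9% and 6.20%, and the TATA box in 9.43% and 14.2%. The other promoters here are those of 26972 other genes in the same RefSeq table, whether or not they had a counted region. The members were not compared with counted promoters alone. A match is a description of these letters and not evidence of binding. Promoters of Rps29, Rpl8, Rpl30, Rpl23a, Rps27a, Rps20, Rpl32, Rpl29, Rpl7, Rplp1, Rps14, Rpl17, Rpl3, Rpl36 and Rpl21 are named only.

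Total counts ranged from 6316125 to 8644574 in Rosa single ChIP-Seq, from 4063200 to 4233144 in Camk2a single ChIP-Seq, from 2709729 to 3049130 in Camk2a tChIP-Seq and from 1457261 to 1828371 in Rosa tChIP-Seq. The median member region held 411 to 593, 258 to 276, 158 to 178 and 86 to 114 counts in these groups, and the least covered member held 3 counts in its lowest Rosa tChIP-Seq library. Cell type markers checked the labels of the lines. Between the tChIP-Seq libraries, 4 of 4 counted markers of excitatory neurons were higher in the Camk2a line, and 4 of 4 astrocyte markers, 4 of 4 endothelial markers, 3 of 4 oligodendrocyte markers and 2 of 4 markers of inhibitory neurons were lower, while 1 oligodendrocyte marker, Mbp, was higher. Summed over the list, excitatory markers took 721 to 784.5 CPM (counts scaled to the library's size) in Camk2a tChIP-Seq against 255 to 285 in Rosa tChIP-Seq, and astrocyte markers 52.7 to 56.3 against 205 to 249. Endothelial markers took 12.1 to 13.6 against 81.4 to 89.9 CPM, oligodendrocyte markers 154 to 164 against 183 to 202, and markers of inhibitory neurons 50.8 to 54.8 against 82.0 to 99.0. Of 5 microglial markers, 0 had a region on their start. Camk2a itself gave a mean of 339 CPM to the excitatory sum in Camk2a tChIP-Seq and 70.0 in Rosa tChIP-Seq. Its region was also higher in Camk2a than in Rosa single ChIP-Seq, by 0.52 on the log2 scale.

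Member regions took a small and even share of the reads. They received 0.536% ± 0.0068 (SD, n = 3) of the counts in Rosa single ChIP-Seq, 0.525% ± 0.0040 in Camk2a single ChIP-Seq, 0.494% ± 0.0041 in Rosa tChIP-Seq and 0.475% ± 0.00014 in Camk2a tChIP-Seq (n = 3 each). Both single ChIP-Seq groups lay above both tChIP-Seq groups, with no overlap between libraries. Counts over the members differed between replicates of a group about as much as counting alone gives, with a chi-square per degree of freedom of 0.926 to 1.23 over all pairs. Regions had a median width of 1964 bp and a GC content of 52.2%, against 2084 bp and 54.2% for the 12906 other regions on a protein-coding TSS. Ribosomal protein genes are short, and in 5 of the 50 member regions with a single gene and start the region covered the whole gene (10%), against 1.55% of 9844 other such regions. Most of the width lay inside the gene, with a median of 518 bp upstream and 1428 bp downstream of the start.

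Levels were compared per length, as CPM per kb of region averaged over the 12 libraries. The median member had 31.8 CPM per kb and the median of the other promoter regions was 29.0, but the members were less spread, with quartiles of 28.0 and 35.9 against 19.9 and 37.1. By these counts ribosomal protein promoters stood near the middle of all counted promoters in H3K4me3 and not at the top, where single regions reached 77.5 CPM per kb. How reads mapping to several copies were treated is not given in the sources used here. The effect of this on the members' levels was not tested. The highest member was Rpl22, a large-subunit protein that is dispensable for translation in general, with 56.4 CPM per kb at chr4:151699793-151701418. Next came 1 of the 2 regions of Rpl24, whose protein lies at the interface of the subunits, with 55.6 CPM per kb at chr16:55973041-55975983. The other Rpl24 region, at chr16:55965727-55967823, had only 25.5 CPM per kb, rank 69 of the 79. Both lie on starts annotated to Rpl24, whose gene model spans 42639 bp against a median of 3022.5 bp over 50 member genes. Whether the higher region serves Rpl24 was not tested. The lowest were 3 regions of chromosome X: Rpl36a with 16.0 CPM per kb (chrX:131120236-131121378), and the 2 regions of Rpl39, a short protein lining the exit tunnel, with 16.7 and 10.0. The latter, at chrX:34625215-34625699, was 485 bp wide and held 3.56 ± 2.38 CPM in Rosa tChIP-Seq (SD, n = 3), too few for any comparison. The 4 member regions of chromosome X had a median of 16.3 CPM per kb against 32.1 for the 75 autosomal ones, and the 435 other promoter regions of chromosome X likewise had a median of 17.3 against 29.5 for the autosomal ones.

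**Figure D1:**
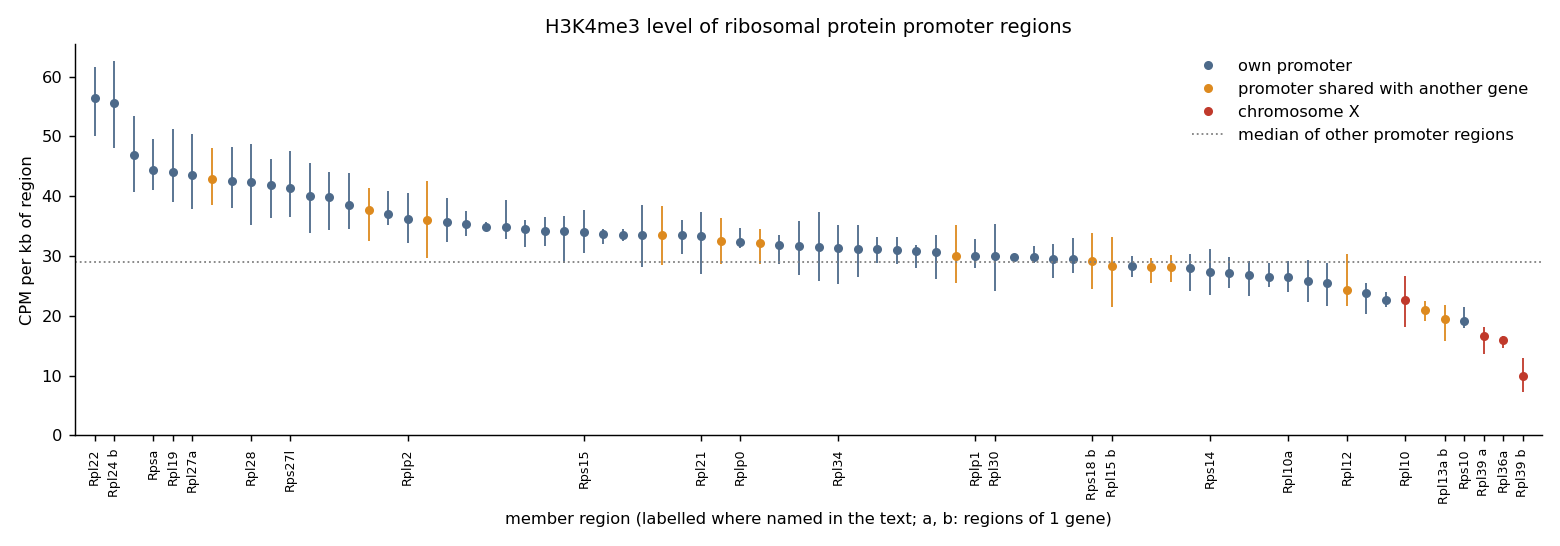
Mean CPM per kb of 74 member regions over the 12 libraries, in descending order, with bars from the lowest to the highest of the 4 group means. Colours mark regions with their own promoter, regions shared with another gene and regions of chromosome X, which stand at the right end apart from Rpl10, and the dotted line is the median of other promoter regions at 29.0.

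The first comparison was that of the 2 lines in tChIP-Seq, which sets FLAG-purified chromatin of a line tagged in Camk2a-expressing cells against that of a ubiquitously tagged line. The lines also differ in Cre driver, and tamoxifen is stated only for the Camk2a line, so these cannot be told apart from the cells tagged. Excitatory markers summed to 255 to 285 CPM in Rosa tChIP-Seq against 548 to 559 in Rosa single ChIP-Seq, and astrocyte markers to 205 to 249 against 163 to 168. Very few ribosomal protein promoters differed. Of the 79 member regions, Rpl12 was higher in the Camk2a line and 2 others were lower, by edgeR's quasi-likelihood test at an adjusted p under 0.01. These 3 regions are 3.80% of the members, while 31.6% of all regions and 33.5% of regions on a protein-coding TSS were called in the same fit. Among other promoter regions of similar counts and width 21.0% were called. At an unadjusted p under 0.05, 9 members were higher and 6 lower, while 8437 of all 17993 regions passed this cut in either direction. Fold changes of the members reached at most 0.43 on the log2 scale with a median of 0.03 (-0.044 with library totals alone as scaling), and their SD of 0.17 compares with 0.72 over all regions and 0.39 over regions of similar counts and width. A log2 fold change of 0.5 in either direction was reached by 0 members but by 31.4% of all regions and by 12.4% of similar ones. For 70 of the 79 members (88.6%) the whole 95% confidence interval lay within 0.5 of 0, against 45.5% of all regions. In tissue chromatin, a lower count cannot be told apart between fewer cells that carry the mark and less of the mark per cell.

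**Figure D2:**
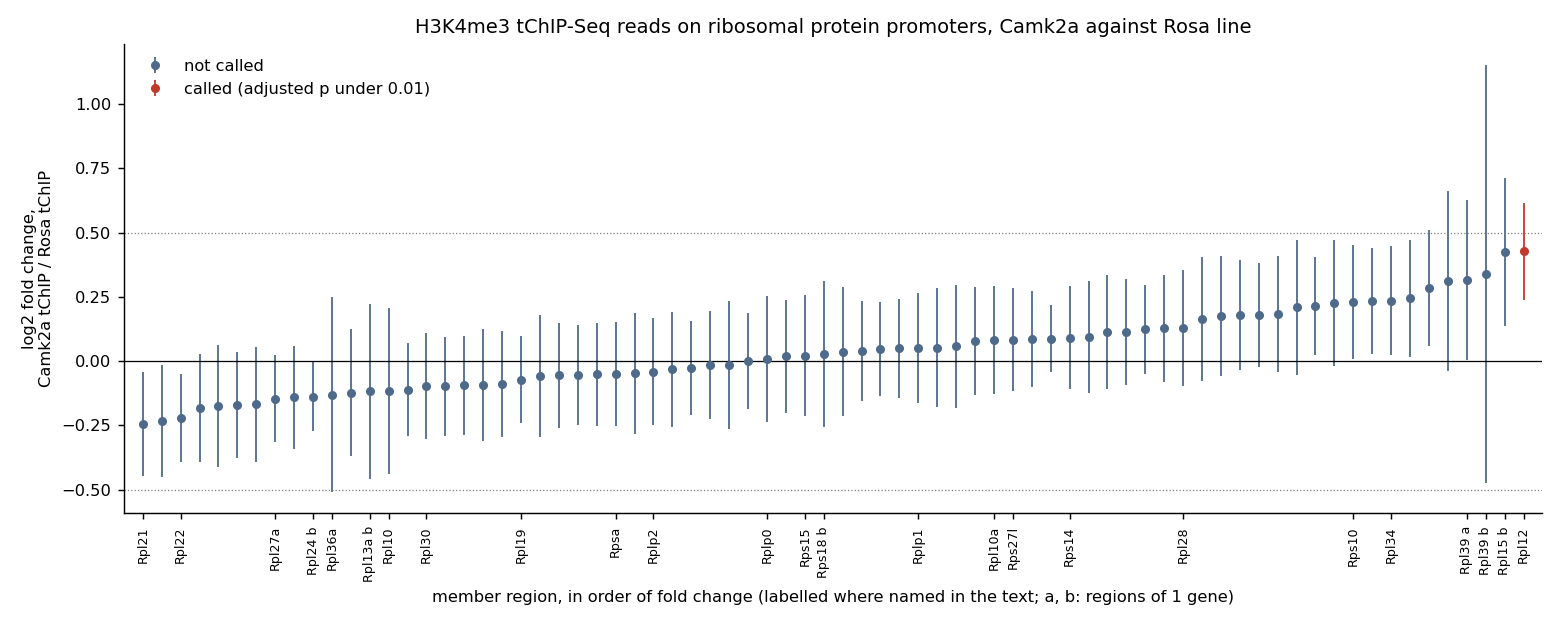
Log2 fold change of member regions between Camk2a and Rosa tChIP-Seq (3 libraries each) with its 95% confidence interval, in ascending order. The fold changes of the 74 regions drawn stay within the dotted lines at 0.5 in either direction, and Rpl12, in red, stands at the upper end at 0.43.

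Rpl12 encodes a protein at the base of the stalk that binds elongation factors. Its region at chr2:32816125-32818999 also covers a start of Lrsam1, a ubiquitin ligase gene transcribed from the same stretch. It held 88.3, 84.1 and 88.8 CPM in Camk2a tChIP-Seq and 70.4, 66.8 and 56.4 in Rosa tChIP-Seq, or 87.0 ± 2.57 against 64.6 ± 7.27 (SD, n = 3 each). The lowest Camk2a library lay above the highest Rosa library. The log2 fold change was 0.43 (SE 0.09, edgeR adjusted p = 0.00011), and the call held in all 13 alternatives. In single ChIP-Seq the same region held 66.1 ± 2.28 CPM in the Camk2a line and 62.3 ± 2.80 in the Rosa line (SD, n = 3 each), and these groups overlapped.

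The calls of lower members were less stable than that of Rpl12. Both were lost without Rosa tChIP-Seq replicate 2, which left 0 lower by edgeR, and DESeq2 also gave 0 lower, with 3 lower at an unadjusted p under 0.05. With library totals alone in place of TMM factors, 1 member was higher and 5 lower.

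The other 76 members did not pass the test. The 3 libraries of each line did not overlap in 24 of 79 members (30.4%) against 48.4% of all regions. The Rps18 region shared with Vps52, whose protein is in the head of the small subunit, and Rps15, at the decoding site, stood at the median of the set. Rps15 at chr10:79755096-79756761 held 53.8, 42.2 and 57.8 CPM in Camk2a tChIP-Seq and 46.4, 58.4 and 47.9 in Rosa tChIP-Seq. Its log2 fold change was 0.02 with a 95% interval of -0.22 to 0.26. The 2 lines overlapped throughout.

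The subunits did not separate in this comparison. The median log2 fold change was 0.03 for both the 46 large-subunit regions (1 higher, 0 lower) and the 30 small-subunit regions (0 higher, 2 lower), and it was 0.01 for the 3 stalk regions, of which 0 passed. Rplp0, the scaffold of the stalk, held 46.7 ± 6.77 CPM in Camk2a and 46.6 ± 5.08 in Rosa tChIP-Seq (SD, n = 3 each). Its partners Rplp1 and Rplp2 had log2 fold changes of 0.05 and -0.04, and Rpsa, the small-subunit protein also known as the laminin receptor, had -0.05. The 31 regions of genes that host a small nucleolar RNA had a median of -0.05 (1 higher, 1 lower) and the 48 others 0.05 (0 higher, 1 lower). The 10 regions of genes mutated in Diamond-Blackfan anaemia, an inherited failure of red cell production, had a median of 0.04 with 0 called. The 4 regions of chromosome X ranged from -0.13 to 0.34, with 0 called and only 1 interval within 0.5 of 0.

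Other housekeeping lists were similarly narrow. Among 78 regions of mitochondrial ribosomal proteins, 1 was higher and 2 were lower with a median of -0.08 and an SD of 0.14, and among 83 regions of oxidative phosphorylation 2 were higher and 3 lower with a median of -0.03 and an SD of 0.14. The 37 regions of translation factors gave 0 higher and 1 lower, and the 31 regions of ribosome biogenesis 0 higher and 1 lower. Fau, which encodes a ribosomal protein fused to a ubiquitin-like protein and has another symbol, had a log2 fold change of 0.02. A narrow spread was therefore shared with other housekeeping genes and was not tested as particular to ribosomal proteins.

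**Figure D3:**
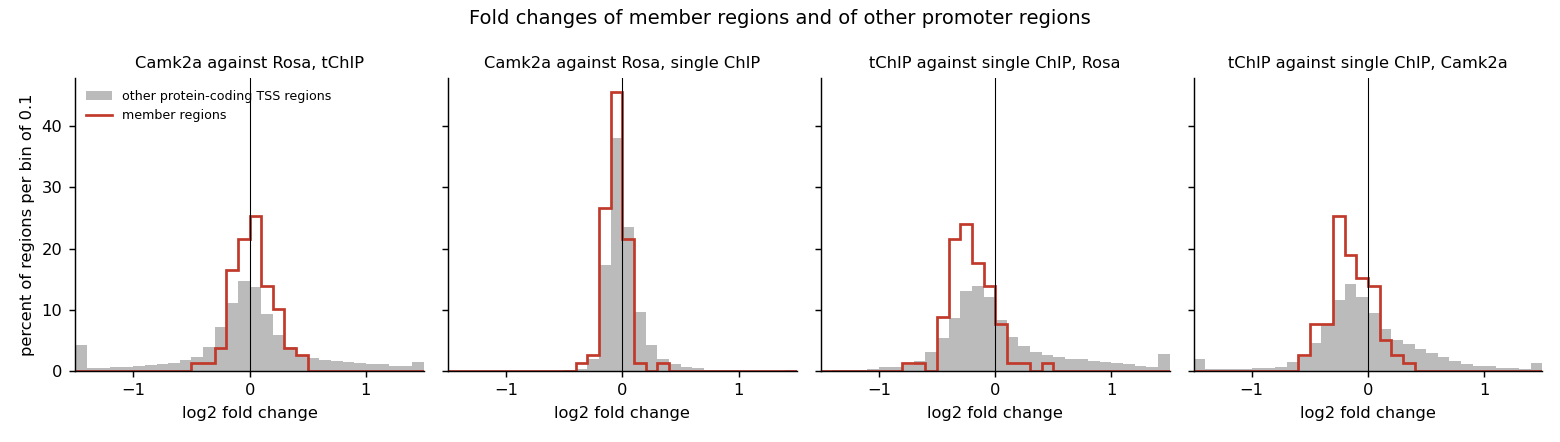
Share of regions per bin of 0.1 log2 fold change for the 79 member regions (red line) and the 12906 other regions on a protein-coding TSS (grey) in 4 comparisons, with values beyond 1.5 collected in the outermost bins. Members are narrower than other promoters in the tChIP-Seq comparison of the lines and lie to the left of 0 in both comparisons of the assays.

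In single ChIP-Seq, where both lines give chromatin of the whole cortex, the members again differed little. No member was higher in the Camk2a line, 0 of 79 by edgeR (1 at an unadjusted p under 0.05, and 0 by DESeq2), and 2 were lower, against 2.15% of all regions called, 0.928% higher and 1.22% lower. By edgeR, 17 members and 3957 of all 17993 regions passed the unadjusted cut in either direction. The groups did not overlap in 22 members (27.8%) and in 25% of all regions. The median log2 fold change was -0.05 with an SD of 0.10, and 60 of 79 members were below 0. Regions of similar counts and width had a median of -0.02 and likewise an SD of 0.10. Of all 12985 promoter regions 7532 were below 0. Rpl27a, a large-subunit protein, at chr7:116661721-116664046, held 103, 105 and 96.7 CPM in Camk2a and 116, 119 and 117 in Rosa single ChIP-Seq, with no overlap. The log2 fold change was -0.21 (SE 0.05, edgeR adjusted p = 0.0034). Rpl19, which bridges the subunits, at chr11:97887273-97889581, held 98.5, 100 and 111 CPM against 118, 115 and 121, also without overlap (log2 fold change -0.19, SE 0.05, adjusted p = 0.0090). Both calls were close to the threshold. Rpl27a was lost without Rosa replicate 2 or 3 or any 1 Camk2a library (adjusted p of 0.011 to 0.045), Rpl19 was lost without any 1 Rosa library or Camk2a replicate 1 or 2 (0.013 to 0.083), and DESeq2 gave 0.17 and 0.24. In tChIP-Seq the same regions differed by -0.15 and -0.07 and were not called.

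Rps14, a small-subunit protein, is the member closest to Camk2a, the gene whose promoter drove Cre in the Camk2a line. Its region lies 148066 bp from the Camk2a region on chromosome 18. It held 86.6, 85.9 and 76.3 CPM in Camk2a single ChIP-Seq and 89.8, 84.7 and 86.5 in Rosa single ChIP-Seq, and the groups overlapped. The log2 fold change was -0.07 (95% interval -0.18 to 0.05) and in tChIP-Seq 0.09 (-0.11 to 0.29). Camk2a itself differed by 0.52 in single ChIP-Seq, and its neighbours Slc6a7 by 0.70 and Arsi by 1.94, while Rps14 was not called.

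The second pair of comparisons set tChIP-Seq against single ChIP-Seq within a line, and here the members moved. The paper had found sites enriched and deprived in tChIP-Seq of the Rosa line and named technical biases as possible reasons. To offset these, its later analyses mainly compared tChIP-Seq between the lines and did not set the assays against each other. In the Rosa line, whose tag is ubiquitous, 34 of 79 members were lower in tChIP-Seq (43.0%) against 22.5% of all regions, 29% of promoter regions and 24.2% of regions of similar counts and width. Only 1 member was higher (1.27%), against 24.7% of all regions. In either direction 44.3% of the members and 47.2% of all regions were called. The median log2 fold change was -0.23 against -0.06 for similar regions, and 70 of 79 members were below 0. The assays did not overlap in 46 members (58.2%) and in 62.3% of all regions. Promoters with the GC content of the members had a median of -0.11 with 31.8% lower, and the part of base composition in the result was not tested. Between the same assays, the summed markers of excitatory neurons stood at 255 to 285 CPM in tChIP-Seq and 548 to 559 in single ChIP-Seq, and those of astrocytes at 205 to 249 and 163 to 168, and their part was not tested either. With library totals alone, all regions had a median of 0.10 and the members of -0.13, with 2 members higher and 15 lower, and the distance of the members from all regions stayed at -0.22. DESeq2 gave 0 higher, with 2 at an unadjusted p under 0.05, and 25 lower. Without Rosa tChIP-Seq replicate 1 the test called 22 lower. The shares of all regions given above belong to the main fit and not to these alternatives.

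Rpl34, a large-subunit protein, had one of the lowest fold changes among called members. At chr3:130431849-130434009 it held 62.1, 51.9 and 49.9 CPM in Rosa tChIP-Seq and 76.5, 82.9 and 67.9 in Rosa single ChIP-Seq. The groups did not overlap, and the log2 fold change was -0.46 (SE 0.09, edgeR adjusted p = 2.1e-06). Rpl28, at chr7:4744493-4745913, held 49.95 ± 6.12 against 69.2 ± 5.95 CPM (SD, n = 3 each), a fold change of -0.45 on the log2 scale (SE 0.10, adjusted p = 1.6e-05). The 4 called regions with the lowest fold changes also included that of Rps18 shared with Vps52, a gene of vesicle transport, at chr17:34092719-34094044, with -0.45 (SE 0.12, adjusted p = 0.00051). Rps27l, a paralogue of Rps27 induced by p53, fell by 0.37 on the log2 scale (adjusted p = 6.9e-05), from 82.6 ± 0.69 to 63.5 ± 2.80 CPM (SD, n = 3 each). The wider Rpl39 region, at chrX:34623272-34625213, had 27.1, 19.7 and 32.8 CPM against 35.8, 36.4 and 33.9 (log2 fold change -0.42, adjusted p = 0.0045), and without Rosa tChIP-Seq replicate 2, its lowest, it had -0.25 with an adjusted p of 0.16.

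The 1 member that was higher in Rosa tChIP-Seq is a second region annotated to Rpl13a, at chr7:52391011-52392058, on the shared start with Flt3l, the gene of a cytokine. It held 21.4, 25.05 and 22.3 CPM in tChIP-Seq and 17.5, 15.4 and 16.7 in single ChIP-Seq, without overlap (log2 fold change 0.48, SE 0.16, adjusted p = 0.0063). It lost the call when any 1 tChIP-Seq library or single ChIP-Seq replicate 2 was left out, with adjusted p between 0.015 and 0.060. The other Rpl13a region, at chr7:52382428-52384183, was among the 34 that were lower (-0.28).

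In the Camk2a line, 30 of 79 members were lower in tChIP-Seq (38.0%), against 22.6% of all regions and 27.5% of promoter regions. Among regions of similar counts and width 25.8% were lower. Only 3 members were higher (3.80%), against 25.3% of all regions. The median log2 fold change was -0.15 against -0.07 for similar regions and -0.10 for promoters of similar GC content, of which 30.7% were lower. The assays did not overlap in 40 members (50.6%) and in 61.6% of all regions. Between these assays the summed markers of excitatory neurons stood at 721 to 784 CPM in tChIP-Seq and 621 to 645 in single ChIP-Seq, those of astrocytes at 52.7 to 56.3 and 154 to 180, and those of endothelial cells at 12.1 to 13.6 and 61.6 to 63.6, and their part in the result was not tested. Rpl30 had the lowest fold change of the called members, a large-subunit protein at chr15:34371466-34373922. It held 61.0, 58.1 and 58.9 CPM in Camk2a tChIP-Seq and 85.7, 89.0 and 81.0 in Camk2a single ChIP-Seq, a difference of -0.52 on the log2 scale (SE 0.08, edgeR adjusted p = 3.1e-09). The values of the 2 assays were far apart compared with the spread within each. Rpl10, whose late addition completes the peptidyl transferase centre, lies on chromosome X at chrX:71516103-71517366 and held 23.6, 23.5 and 21.7 CPM against 34.0, 31.3 and 32.6 (log2 fold change -0.51, SE 0.13, adjusted p = 0.00028). Rpl21, at chr5:147643934-147646080, held 57.9 ± 2.96 against 79.2 ± 4.84 CPM (SD, n = 3 each; -0.45, adjusted p = 4.4e-07), and the Rps18 region shared with Vps52 again had -0.45. In the Rosa line Rpl10 was lower as well (24.99 ± 0.69 against 33.6 ± 2.1 CPM, SD, n = 3 each; -0.42, edgeR adjusted p = 0.0049), a call kept in 7 of 13 alternatives, while Rpl30 kept its call in 13 of 13 in each line. DESeq2 called 1 higher and 13 lower, and leaving out any 1 library gave 22 to 25 lower. The shares of all regions given above are those of the main fit only, so these counts cannot be set against them.

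The 3 members that were higher in Camk2a tChIP-Seq were Rpl12, Rpl10a, which forms the mobile L1 stalk, and Rps10, one of the genes mutated in Diamond-Blackfan anaemia. Rpl12 held 87.0 ± 2.57 CPM against 66.1 ± 2.28 (SD, n = 3 each). The difference was 0.40 on the log2 scale (SE 0.08, edgeR adjusted p = 2.1e-06) and kept its call in all 13 alternatives. Rpl10a, at chr17:28464759-28466841, held 56.4, 61.7 and 64.5 CPM against 52.2, 47.7 and 49.8 (0.28, SE 0.09, adjusted p = 0.0041). Rps10, at chr17:27770272-27772890, held 56.4, 57.0 and 55.6 against 48.2, 45.1 and 47.4 (0.27, SE 0.09, adjusted p = 0.0091). The assays did not overlap for any of these 3. Rps10 lost its call when any 1 library was left out (adjusted p of 0.012 to 0.039), and Rpl10a without replicate 2 or 3 of either assay (0.011 to 0.038). The GC content of the Rpl10a region, 60.2%, and that of Rps10 and Rpl12, 56.4% and 56.5%, lay above the median of the members.

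**Figure D4:**
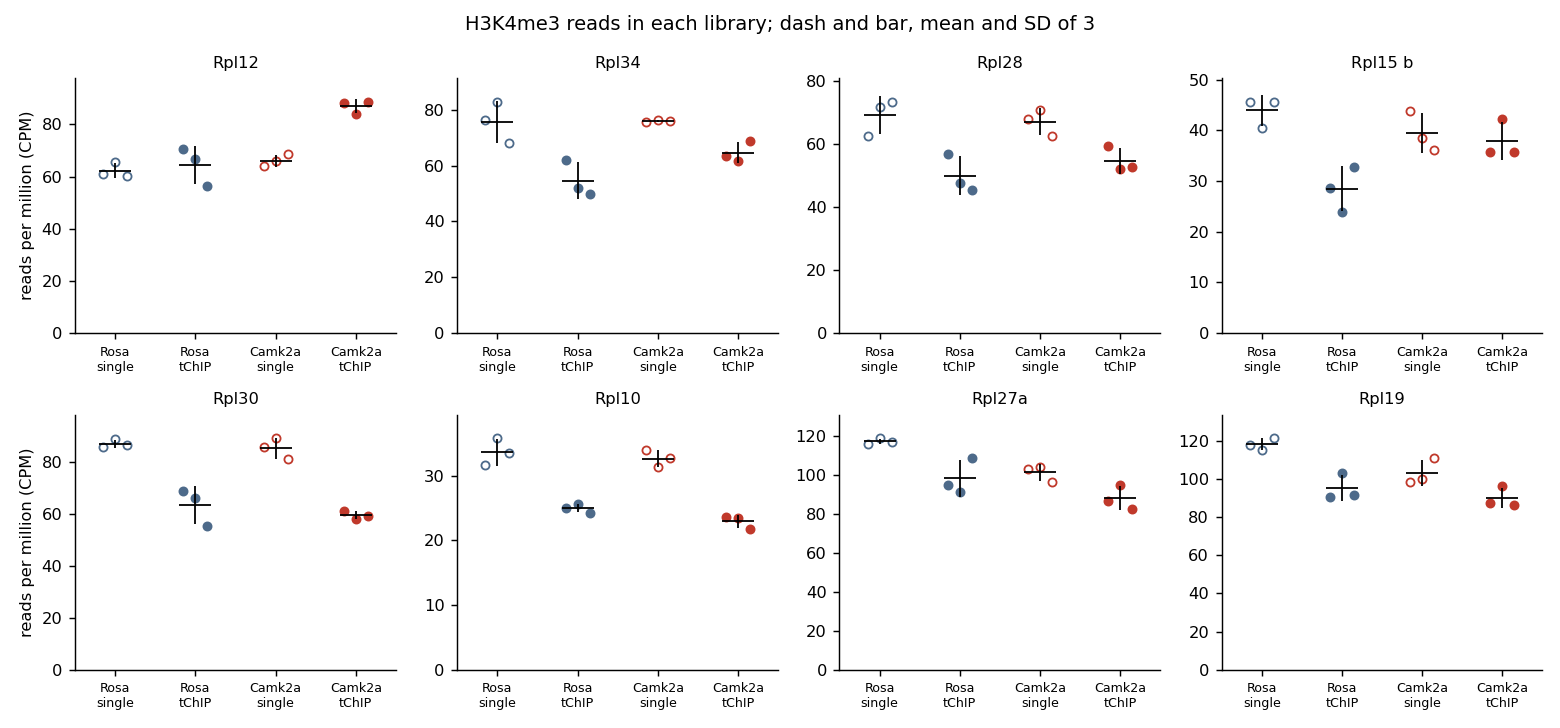
CPM of 8 member regions in each of the 12 libraries, with open circles for single ChIP-Seq, filled circles for tChIP-Seq, and the mean and SD of each group of 3. Rpl12 stands apart in Camk2a tChIP-Seq at 87.0 CPM, Rpl34, Rpl28, Rpl30 and Rpl10 are lower in tChIP-Seq of both lines, and Rpl27a and Rpl19 are highest in Rosa single ChIP-Seq.

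The differences between the assays in the Rosa line and in the Camk2a line rest on separate libraries and can be set side by side. Of the members, 23 were lower in both lines, which is 67.6% of the Rosa list and 76.7% of the Camk2a list, 11 were lower in the Rosa line alone by this threshold and 7 in the Camk2a line alone, and 38 in neither. Of all regions, 22.5% were lower in the Rosa line and 22.6% in the Camk2a line. How many were lower in both was not counted, so the overlap is not shown to be particular to the members. The 23 include the large-subunit genes Rpl3, Rpl4, Rpl5, Rpl9, Rpl10, Rpl11, Rpl19, Rpl27a, Rpl28, Rpl30 and Rpl34, and both regions of Rpl24. Others are the stalk gene Rplp2, the small-subunit genes Rps13, Rps14, Rps15, Rps25, Rps27, Rps27a and Rps29, and the Rps18 region shared with Vps52. The other Rps18 region, at chr17:34091280-34092644, was not called lower in either line. Its mean was 39.4 CPM for tChIP-Seq against 37.1 for single ChIP-Seq in the Rosa line, and 45.1 against 39.6 in the Camk2a line. Not all calls of the 23 were stable. In the Camk2a line Rpl19 and Rpl34 kept theirs in 6 of 13 alternatives and Rpl27a in 7, and DESeq2 called only 13 members lower there, so that no more than 13 could be lower in both lines by DESeq2. Fold changes were below 0 in both lines for 59 members and above 0 in both for 7. Of all 12985 promoter regions, 7899 were below 0 in the Rosa line and 7589 in the Camk2a line. Across the 79 members, which share the libraries of each comparison, the fold changes of the lines had a Pearson r of 0.53 and a Spearman rho of 0.55, while r was 0.22 across the other 12906 promoter regions. The fold change also varied with the GC content of the member, with r of 0.39 in the Rosa line and 0.58 in the Camk2a line across the 79 regions. These values describe the regions and carry no test.

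**Figure D5:**
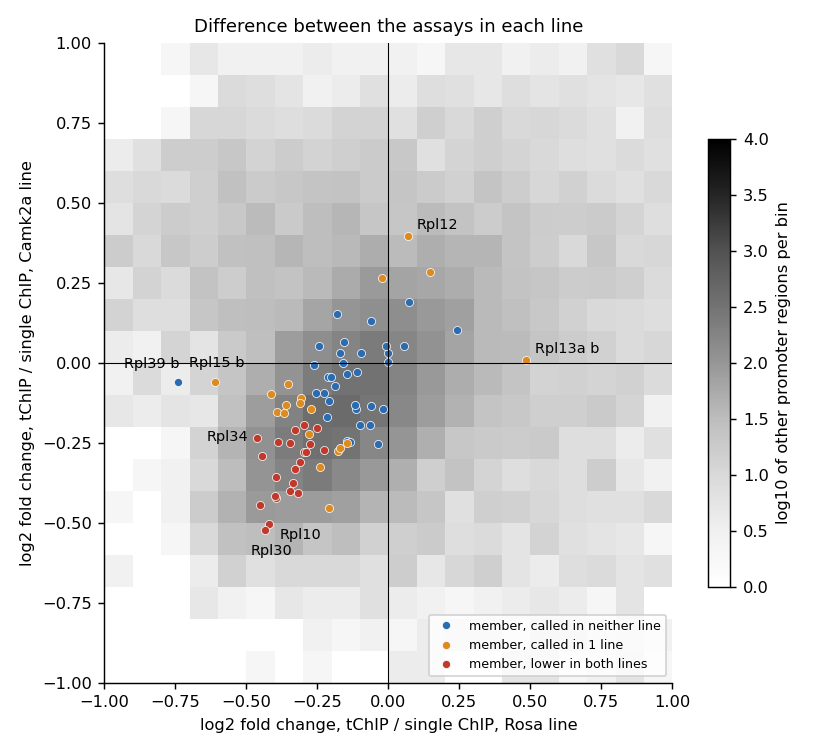
Log2 fold change between tChIP-Seq and single ChIP-Seq in the Rosa line (x axis) and the Camk2a line (y axis) for 74 member regions, over the number of other promoter regions per bin of 0.1 in grey (log10 scale, values beyond 1 not drawn). Most members lie below 0 on both axes, with those called lower in both lines in red, and Rpl12 and Rpl13a (second region) lie apart.

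Both subunits took part. In the Rosa line 19 of 46 large-subunit regions and 14 of 30 small-subunit regions were lower in tChIP-Seq, with medians of -0.22 and -0.24, and in the Camk2a line 18 and 11 were lower, with medians of -0.14 and -0.18. Of the stalk genes only Rplp2 passed, in both lines, with 62.1 ± 2.15 against 75.6 ± 0.92 CPM in the Rosa line and 60.0 ± 5.70 against 71.8 ± 6.38 in the Camk2a line (SD, n = 3 each). In the Camk2a line its groups overlapped, since the lowest single ChIP-Seq value was 64.7 and the highest tChIP-Seq value 65.0. The call of Rplp2 was kept in 7 of 13 alternatives in each line, with edgeR adjusted p of up to 0.087 in the Rosa line and 0.077 in the Camk2a line, and was lost with DESeq2 in both. Of the 14 regions shared with another gene 8 and 7 were lower, with medians of -0.31 and -0.20, against 26 and 23 of the 65 others, with -0.21 and -0.15. Of the 10 regions of Diamond-Blackfan anaemia genes 4 were lower in each line, and of the 4 regions of chromosome X 2 and 1. Regions of snoRNA hosts had medians of -0.24 and -0.21 in the 2 lines and the others of -0.20 and -0.14. Among regions that hold a RefSeq start, the 26 with a run of at least 7 pyrimidines in the 30-base window had medians of -0.26 and -0.16, and the 20 without had -0.21 and -0.14. The 28 with an ETS core upstream had -0.25 and -0.15, and the 18 without had -0.17 and -0.15.

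Other housekeeping lists also had medians below 0, but not all held more lower regions than the 22.5% and 22.6% of all regions in the 2 lines. Of 83 regions of oxidative phosphorylation, 34 were lower in the Rosa line and 44 in the Camk2a line, (41.0% and 53.0%), with 0 higher in each by edgeR and medians of -0.22 and -0.22. Of 78 regions of mitochondrial ribosomal proteins, 13 and 23 were lower (16.7% and 29.5%), with medians of -0.16 and -0.17, and of 37 regions of translation factors 13 and 17 were lower (35.1% and 45.9%). Of 31 regions of ribosome biogenesis, 5 were higher and 6 lower (19.4%) in the Rosa line and 4 higher and 9 lower (29.0%) in the Camk2a line. In the Rosa line the shares of mitochondrial ribosomal proteins and ribosome biogenesis thus lay below that of all regions. Of 3 regions of paralogues with a longer suffix than the rule takes, 1 was lower in each line. Fau was lower in the Rosa line (-0.24, edgeR adjusted p = 0.0045) and had -0.12 in the Camk2a line, where it was not called.

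The last comparison, the interaction of line and assay over all 12 libraries, asked where the difference between the lines in tChIP-Seq departed from that in single ChIP-Seq. Of the members, 1 was called, against 26.9% of all regions (13.7% higher, 13.2% lower) and 17.1% of regions of similar counts and width. It was higher, and 0 were lower by edgeR, with 3 at an unadjusted p under 0.05 and 0 by DESeq2. By edgeR, 10 members and 7565 of all 17993 regions passed the unadjusted cut in either direction. The called region, at chr14:19103576-19104897, lies on the start of Nkiras1, a Ras-like regulator of NF-kappa-B, and on an upstream start of Rpl15, a large-subunit protein, and its start-proximal end overlaps the Rpl15 stretch printed above. It held 35.8, 42.2 and 35.7 CPM in Camk2a tChIP-Seq and 28.7, 23.9 and 32.8 in Rosa tChIP-Seq, without overlap, but 43.8, 38.4 and 36.1 in Camk2a and 45.6, 40.4 and 45.6 in Rosa single ChIP-Seq, with overlap. The difference between the lines was 0.42 in tChIP-Seq (SE 0.14, adjusted p = 0.013) and -0.15 in single ChIP-Seq, and the interaction was 0.56 (SE 0.17, edgeR adjusted p = 0.0038). Within the Rosa line the same region had the lowest called fold change between the assays, -0.61 (SE 0.13, adjusted p = 5.4e-06). The interaction was lost without Rosa tChIP-Seq replicate 1 (adjusted p = 0.011) or replicate 2 (0.043), Camk2a tChIP-Seq replicate 2 (0.030) or Camk2a single ChIP-Seq replicate 3 (0.015), with library totals alone (0.019, with 2 other members then lower) and with DESeq2 (0.013). The neighbouring region on the main start of Rpl15, at chr14:19101752-19103519, had an interaction of 0.25 and was not called. Rpl12, the member that was higher in the Camk2a line, had an interaction of 0.34 (SE 0.12, edgeR adjusted p = 0.014), which did not pass the threshold, and without Rosa tChIP-Seq replicate 1 it had 0.41 and passed (adjusted p = 0.0088).

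The 7 genes without a region on an annotated start were described by their nearest region. Rpl31, Rps3a, Rps4x and Rps7 had a region 26, 130, 79 and 40 bp away, and 0 of these 4 regions were called between the lines in tChIP-Seq. The region next to Rps7 was weakly covered, with group means of 9.31 to 13.1 CPM. The nearest regions of Rpl3l, Rpl39l and Rpl10l, paralogues known for expression in muscle and testis, lay 3272, 22381 and 934249 bp away, and belonged to other genes.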

How the data were processed

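The authors sequenced reads of 80 nucleotides, trimmed them with FASTX Toolkit, removed repeats with Bowtie2 2.1.0, mapped the rest to mm9 with Bowtie 1.0.0, removed duplicates with SAMtools, used MACS for peak calling, and took read numbers per peak with bedtools 2.17.0. The deposited values are these counts, not normalized, on 17993 regions. They stand for peaks found in the triplicates. How peaks of the groups were joined, and how reads mapping to several copies were treated, is not given in the sources used here. The 12 input and FLAG libraries were not analysed here.

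Regions were assigned to genes by overlap with GENCODE M1 start sites on mm9. Counts of all regions were fitted in edgeR 4.0.16 (R 4.3.3; TMM, glmQLFit, glmQLFTest, no filter, no covariate), each comparison of 2 groups on its own 6 libraries and the interaction on all 12, with Benjamini-Hochberg adjustment over all regions and a threshold of 0.01. CPM used TMM factors over all 12 libraries. Alternatives were DESeq2 1.42.0, other scalings, a minimum mean count of 10, a threshold of 0.05, a single fit, a replicate block, other member definitions and each library left out. A call at 0.01 cannot be lost at the threshold of 0.05, so that alternative is kept by construction wherever kept calls are counted. Regions of similar counts and width shared the fifth of both measures. The scripts were tested on simulated data. The members, lists and tests were chosen with earlier results of these data known. Members were named if called and among the 8 highest or lowest fold changes between the lines in tChIP-Seq or the 4 of any other comparison, if among the 3 highest or lowest levels, if within 500 kb of Camk2a or nearest to the median, or as stalk gene, Rpsa, listed paralogue or Fau. Some members that the rule names are not reported here and were left out of the plots of single regions. Further members in lists of names were chosen after their values were seen. Deviations of single ChIP-Seq and tChIP-Seq libraries from their group means were compared by correlation within each line. In the Rosa line r was 0.013 to 0.044 for same-numbered libraries and -0.025 to 0.011 for the others. In the Camk2a line it was -0.019 to 0.037 and -0.040 to 0.038. Same-numbered Rosa libraries thus deviated together slightly, but the main fits used no pairing.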

Additional observations from a re-analysis of the deposited data

Results flagged for a closer look

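The region on the shared start of Rpl15 and Nkiras1 (chr14:19103576-19104897) stood out because the difference between the lines was not the same in the 2 assays, by a test of that difference itself. The line difference in tChIP-Seq exceeded that in single ChIP-Seq by 0.56 on the log2 scale (edgeR interaction, SE 0.17, adjusted p = 0.0038). All 3 Camk2a tChIP-Seq libraries lay above all 3 Rosa tChIP-Seq libraries, while the single ChIP-Seq libraries of the lines overlapped. Over the 18 alternatives the interaction ran from 0.46 to 0.66 with adjusted p of 0.0015 to 0.043, and 12 kept the call. The reads of Rpl15 and Nkiras1 cannot be told apart in this region.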

How the results depend on the processing

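With library totals alone as scaling, the medians of all regions moved to -0.07 for the lines in tChIP-Seq, 0.10 for the assays in the Rosa line and -0.10 for the interaction, and the members' medians to -0.044, -0.13 and -0.033, while members minus all regions stayed at 0.03, -0.22 and 0.06. Calls were then 1 higher and 5 lower for the lines in tChIP-Seq, 0 lower for the lines in single ChIP-Seq, 2 higher and 15 lower for the assays in the Rosa line, and 0 higher and 2 lower for the interaction. DESeq2 gave 0 lower, 0 lower, 0 higher and 0 higher in these 4 comparisons, and 1 higher and 13 lower for the assays in the Camk2a line. For the lines in single ChIP-Seq, 1 member was lower with DESeq2 size factors in edgeR and 1 with all 12 libraries in a single fit. At a threshold of 0.05, 3 members were higher and 4 lower for the lines in tChIP-Seq, 5 lower in single ChIP-Seq, 2 higher for the assays in the Rosa line, and 4 higher and 2 lower for the interaction. Without shared promoters, 0 were higher for the lines in tChIP-Seq, the assays in the Rosa line and the interaction. The cause of these moves was not tested. Shares of all regions called are given for the main fits only. The counts under alternatives therefore describe the member calls and not their distance from all regions. Leaving out 1 library gave 1 to 2 higher and 0 to 2 lower for the lines in tChIP-Seq (0 without Rosa tChIP-Seq replicate 2), 0 to 1 lower in single ChIP-Seq, 0 to 1 higher and 22 to 33 lower for the assays in the Rosa line, 1 to 2 higher and 22 to 25 lower in the Camk2a line, and 0 to 1 higher and 0 to 1 lower for the interaction. The share of counts in Rosa single, Rosa tChIP-Seq, Camk2a single and Camk2a tChIP-Seq was 0.566%, 0.522%, 0.553% and 0.50% with wider symbols, 0.428%, 0.396%, 0.416% and 0.378% without shared promoters, and 0.528%, 0.487%, 0.516% and 0.468% without the region near Camk2a. With a replicate block, calls were 1 higher and 2 lower, 0 and 2, 1 and 34, 3 and 30, and 1 and 0. The block was the replicate number, by which Rosa libraries deviated together slightly (r of 0.013 to 0.044). These counts were the same as without the block, although Rpl19 lost its call between the assays in the Camk2a line (-0.19, edgeR adjusted p = 0.012). Adding regions within 200 bp of a start, chosen after seeing the data, left these counts as they were. No called fold change of a named region changed sign, while the members' medians for the lines in tChIP-Seq and the interaction (0.03 and 0.06) fell below 0 with library totals alone, as given above. Over the alternatives of named regions, 378 calls were kept and 121 lost, and of the results that were not called 20 became called and 1370 did not. The kept calls include those at the threshold of 0.05, which could not be lost. Rosa tChIP-Seq, with 86 to 114 counts in the median member, limits the precision.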
